A study of Homo sapiens with 10 samples.

Results

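Metallothioneins are small, cysteine-rich proteins that bind zinc and copper, buffer free zinc and take up toxic metals such as cadmium. Their transcription is raised by metal-responsive transcription factor 1 (MTF1), a zinc finger protein that senses free zinc and binds short metal response elements in promoters. The zinc exporter SLC30A1 of the plasma membrane is another known target of MTF1, so that zinc storage and zinc export are tied to the same sensor. In the tables used here this system was described by 9 genes chosen by name, namely the metallothionein genes MT1E, MT1F, MT1G, MT1H, MT1M, MT1X and MT2A together with MTF1 and SLC30A1. They are 9 of the 64940 gene entries kept, and all 9 were found under their symbols.

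RNA-seq was performed on 2 control libraries and 2 libraries of cells overexpressing DAZL (oeDAZL), a germ cell-specific RNA-binding protein, all from the human embryonic stem cell (hESC) line H9. The labels give the oeDAZL cells as primordial germ cell-like cells (hPGCLCs) derived from hESCs. They give the control cells as wild-type, spontaneously differentiated cells, whereas the deposited design text names them PGCLCs, so that overexpression of DAZL and a difference in culture cannot be told apart. The study's methods deliver DAZL by lentivirus during differentiation with BMP4 and BMP8a in medium that holds serum, and nothing in the labels says whether the control libraries of this experiment received a control virus or whether the replicates are separate cultures, so P-values measure only the spread between these libraries.

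The values are TPM, the abundance of transcripts as a part of a fixed library total, which are scaled for transcript length and can be compared between genes but keep no read depth. A 0 therefore means only that a gene was listed at 0. DAZL itself was at 0 and 0.0333 TPM in control against 102 and 101 TPM in oeDAZL.

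The cell type was checked against marker lists, with limma fitted across all 16687 genes tested, of which 5.02% were higher and 15.2% lower in oeDAZL at an unadjusted P of at most 0.05. Of 8 primordial germ cell markers, TFAP2C (44.3 to 53.9 TPM) and PDPN (32.9 to 58.5 TPM) were the most abundant and KIT was between 6.23 and 7.70 TPM. The markers SOX17, PRDM1, DPPA3 and NANOS3 each stayed at or under 3.35 TPM in every library, and DDX4, a marker of later germ cells, was listed at 0 in all 4. The list summed to 103 and 112 TPM in control against 116 and 116 TPM in oeDAZL, and PDPN, higher in oeDAZL, was its only gene at that P. PDPN, at 32.9 and 49.7 TPM in control against 58.5 and 52.5 TPM in oeDAZL, also had the only positive estimate. The other 6 of the 7 genes tested had estimates below 0, so the sum does not describe the list as a whole. Of 5 mesenchymal markers 4 were lower at that P, COL3A1 and DCN also by at least 2-fold. The list summed to 1697 and 1518 TPM in control against 973 and 991 TPM in oeDAZL. The remaining marker, POSTN, had a positive estimate (log2 fold change 0.57), at 40.6 and 122 TPM in control against 117 and 94.8 TPM in oeDAZL. Of 5 pluripotency markers 2, POU5F1 and TDGF1, were higher at that P, with sums of 69.5 and 66.1 TPM against 79.9 and 76.1 TPM. The other 2 of the 4 tested, DPPA4, the most abundant, and SOX2, had log2 fold changes of -0.11 and -0.60. Of 6 markers of yolk sac and hepatic endoderm 1, AFP, was lower at that P and by at least 2-fold, with sums of 271 and 156 TPM against 157 and 199 TPM. AFP was at 36.3 and 13.1 TPM in control against 8.91 and 11.6 TPM in oeDAZL (adjusted p = 0.243 in limma), with control replicate 1 far above the other libraries. Of 6 markers of amnion and trophoblast, HAND1 was higher and ISL1 and VTCN1 were lower at that P, with sums of 2164 and 2221 TPM against 2421 and 2412 TPM. Bulk libraries cannot tell fewer cells of a type from less RNA per cell, and the part of these shifts in the values below was not tested.

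Metal response elements are the sequences MTF1 is known to bind. RefSeq promoters (GRCh38.p14) were found for 5 of the 9 genes, and the 250 bases before the transcription start were searched for the core metal response element, TGCACNC or TGCGCNC, on both strands. The promoters of MT2A, MT1X, MT1H and SLC30A1 are shown because they hold the element and because the genes differ widely in level. Capitals mark each match, including matches on the reverse strand, and each sequence runs 5′ to 3′ on the strand of its gene.
MT2A, chr16:56608334-56608583, + strand: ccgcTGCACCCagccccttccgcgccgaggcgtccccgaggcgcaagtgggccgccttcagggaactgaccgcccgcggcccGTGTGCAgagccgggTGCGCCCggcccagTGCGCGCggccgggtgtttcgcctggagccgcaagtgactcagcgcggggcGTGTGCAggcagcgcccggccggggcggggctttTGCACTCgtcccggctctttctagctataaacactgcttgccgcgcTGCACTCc
MT1X, chr16:56682220-56682469, + strand: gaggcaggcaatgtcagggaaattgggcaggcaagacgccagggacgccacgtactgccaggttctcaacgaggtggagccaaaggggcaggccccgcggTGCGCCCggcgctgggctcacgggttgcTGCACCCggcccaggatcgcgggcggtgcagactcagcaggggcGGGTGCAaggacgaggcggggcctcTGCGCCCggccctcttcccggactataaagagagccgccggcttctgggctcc
MT1H, chr16:56669564-56669813, + strand: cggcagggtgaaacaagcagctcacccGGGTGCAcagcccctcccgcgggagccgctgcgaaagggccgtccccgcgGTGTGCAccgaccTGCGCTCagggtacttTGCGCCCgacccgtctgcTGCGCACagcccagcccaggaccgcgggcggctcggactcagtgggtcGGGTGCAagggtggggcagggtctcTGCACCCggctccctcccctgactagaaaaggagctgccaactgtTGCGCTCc
SLC30A1, chr1:211579162-211579411, - strand: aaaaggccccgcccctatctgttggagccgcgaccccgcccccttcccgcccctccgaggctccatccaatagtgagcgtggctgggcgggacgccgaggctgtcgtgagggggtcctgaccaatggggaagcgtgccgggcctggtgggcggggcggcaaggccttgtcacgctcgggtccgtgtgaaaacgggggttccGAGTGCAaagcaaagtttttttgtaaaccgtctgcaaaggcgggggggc

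MT2A held 7 matches, MT1X held 4 and MT1H held 8, with no overlap between matches. SLC30A1 held 1 match, whose first base lies 49 bases before the start, and the MTF1 promoter held 0. Of 35116 promoters, 24.8% held at least 1 match, so the single match of SLC30A1 was common among promoters. By contrast, 0.370% held at least as many as MT1X, 0.0313% at least as many as MT2A and 0.0171% at least as many as MT1H. The sequence TATAAA lay within the last 50 bases before the start in MT2A and MT1X, and in 2.63% of all promoters. It was absent there in MT1H, SLC30A1 and MTF1. It was present in the metallothionein genes MT4 and MT1B, both listed at 0 in all libraries, so it did not follow level. This search was chosen after the sequences were seen. These matches describe the letters of the promoter and are not evidence of binding.

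**Figure D1:**
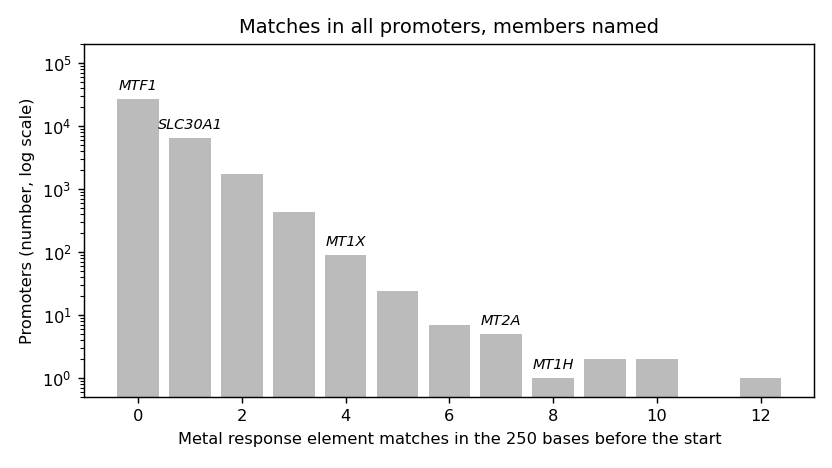
Number of RefSeq promoters (vertical axis, log scale) by the number of metal response element matches in the 250 bases before the start (horizontal axis), with the 5 genes that have a promoter entry written above their bar. MT1X, MT2A and MT1H stand in the sparse right tail, with 4, 7 and 8 matches.

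The metallothionein genes lie in 1 cluster on chromosome 16 of hg38. In GENCODE 44, MT2A runs from 56608584 to 56609497, MT1E from 56625475 to 56627112, MT1M from 56632659 to 56633981, MT1F from 56657731 to 56660698, MT1H from 56669814 to 56671129 and MT1X from 56682470 to 56684196, all on the forward strand. MT1G lies between MT1F and MT1H on the reverse strand, from 56666730 to 56668065. The canonical transcripts are short, at 746 bases for MT1E and between 397 and 425 bases for the other 6 genes. Their 7 coding regions, each 183 bases, were 88.5% to 95.1% identical over 21 pairs.

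Because the authors kept only reads that mapped uniquely, this likeness bears on how far each gene can be measured. Windows of the canonical transcript were compared with the transcripts of other genes that do not overlap the gene in position. A long non-coding RNA gene that overlaps MT1X was therefore left out. The share of windows of 50 bases without a match was lowest in MT1H (79.6%) and MT1G (80.1%) and highest in MT1F (93.9%). It was 82.0% in MT1X, 85.4% in MT1M, 88.9% in MT2A and 89.7% in MT1E. With windows of 100 bases it was 96.6% in MT1H, which shared windows with the copy MT1HL1, and 100% in the other 6 genes. All 7 genes thus had mostly unmatched sequence at either window length. The read length is not given in the sources used here, and single paralogs are uncertain to the extent that reads fall in shared windows.

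Level rather than change separated the members. MT2A, the main metallothionein of many human cells, was at 45.2 and 55.6 TPM in control against 59.7 and 46.5 TPM in oeDAZL. It was the highest of the 9 genes in every library, and its groups overlapped, with control replicate 2 above oeDAZL replicate 2. MT1X was at 19.7 and 19.0 TPM in control against 19.1 and 27.3 TPM in oeDAZL. Its groups overlapped, with oeDAZL replicate 2 above the other 3 libraries. A long non-coding RNA gene overlaps MT1X on the same strand, so reads could be split between them. MT1F was at 17.9 and 11.9 TPM in control against 18.7 and 12.0 TPM in oeDAZL. In both groups replicate 1 was the higher of the pair, and the spread within a group exceeded the difference between the group means. MT1E was at 5.03 and 9.14 TPM in control against 10.8 and 8.54 TPM in oeDAZL. Control replicate 1 stood below the other 3 libraries, which overlapped between the groups.

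The remaining metallothionein members were near or at 0. MT1M was listed at 0 and 0.281 TPM in control against 0 and 0.984 TPM in oeDAZL, and thus had a value only in the libraries numbered 2. MT1G and MT1H were listed at 0 in all 4 libraries, so the promoter with the most matches shown above belongs to a gene with no value here. They are among 31689 of the 64940 entries with this listing.

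Of the other 2 members, the zinc sensor MTF1, which spans 37809574 to 37859592 on the reverse strand of chromosome 1, stood at 5.29 and 5.81 TPM in control against 5.54 and 6.08 TPM in oeDAZL. This was a low and even level, with overlapping groups; a long non-coding RNA gene overlaps MTF1 on the opposite strand, and whether counting used strand is not stated. SLC30A1, which spans 211571568 to 211579161 on the same strand, stood at 17.5 and 18.6 TPM in control against 20.8 and 21.1 TPM in oeDAZL. It was the only member whose oeDAZL libraries both lay above both control libraries, and 54.4% of all genes tested had groups that did not overlap, 16.04% with oeDAZL above.

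**Figure D2:**
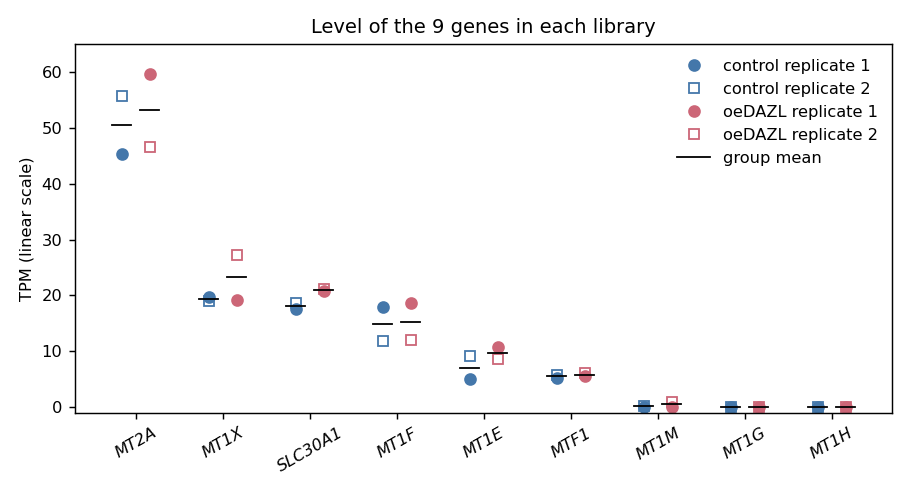
TPM (vertical axis, linear) of the 9 genes, ordered by mean level, in each control library (blue) and each oeDAZL library (red), with filled circles for replicate 1, open squares for replicate 2 and black bars for group means (n = 2). MT2A lies above all other genes, MT1M, MT1G and MT1H lie at or near 0, and only SLC30A1 has groups that do not overlap.

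In order of mean TPM over the 4 libraries the genes ran MT2A (51.8 TPM), MT1X (21.3 TPM), SLC30A1 (19.5 TPM), MT1F (15.1 TPM), MT1E (8.38 TPM), MTF1 (5.68 TPM) and MT1M (0.316 TPM), with MT1G and MT1H last. The range of MT2A, from 45.2 to 59.7 TPM, lay above that of every other member, and that of MT1F, from 11.9 to 18.7 TPM, lay above that of MT1E, from 5.03 to 10.8 TPM. Neighbours in the order with overlapping ranges were MT1X and SLC30A1, SLC30A1 and MT1F, and MT1E and MTF1, so their order is not settled by 4 libraries.

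Whether oeDAZL changed these levels was asked with limma, fitted to log2(TPM + 1) of the 16687 genes whose mean reached 1 TPM. Genes were called where the fold change reached 2 with an unadjusted P of at most 0.05, the thresholds of the study. The study applied them to read counts with DESeq2, so its calls and those made here are not directly comparable. MT2A, MT1X, MT1F, MT1E, MTF1 and SLC30A1 passed the filter, whereas MT1G, MT1H and MT1M did not and were not tested. Of the 6 genes tested, 0 were called in limma, against 0.689% of all genes tested (0.126% higher and 0.563% lower). At an unadjusted P of at most 0.05, whatever the fold, 0 of the 6 passed, against 20.2% of all genes tested (5.02% higher and 15.2% lower), and 0 had an adjusted p under 0.05, against 0.0599%. At that unadjusted P, 838 genes were higher and 2530 lower as deposited, 1872 and 1366 with median-of-ratios scaling and 1402 and 1514 after quantile normalization. The direction of the calls over all genes depended on scaling, with 18.3% of them higher as deposited and 27.7% after median-of-ratios scaling and 44.1% after quantile normalization.

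Each log2 fold change below is oeDAZL minus control on the log2(TPM + 1) scale, which understates the change of low genes. For MT2A it was 0.07 (SE 0.15, adjusted p = 0.820 in limma), with a 95% interval from -0.28 to 0.42. For MT1F it was 0.03 (SE 0.25, adjusted p = 0.956 in limma), with an interval from -0.57 to 0.64. For MT1X it was 0.23 (SE 0.16, adjusted p = 0.464 in limma), with an interval from -0.16 to 0.63. In none of these 3 genes did the interval reach a fold change of 2 in either direction, and each interval held 0. MT1E had the largest estimate, 0.44 (SE 0.26, adjusted p = 0.387 in limma), and an interval from -0.19 to 1.07, which reached past 2-fold. Its value rested on control replicate 1, without which it was 0.07. Without control replicate 2 it was 0.82, with adjusted p = 0.0718 in limma.

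The 2 genes of sensing and export varied less between replicates. For MTF1 the log2 fold change was 0.06 (SE 0.14, adjusted p = 0.852 in limma), with an interval from -0.29 to 0.41. For SLC30A1 it was 0.21 (SE 0.09, adjusted p = 0.259 in limma), with an interval from -0.01 to 0.42. Of all members SLC30A1 lay nearest to the unadjusted threshold, just short of it. It passed at a fold change under 2 with median-of-ratios scaling (log2 fold change 0.30, adjusted p = 0.174 in limma), after quantile normalization (0.30, adjusted p = 0.205 in limma), without a filter on TPM, with TPM rescaled without mitochondrial genes and without control replicate 2. Its adjusted p in limma stayed between 0.170 and 0.685 over all alternatives.

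**Figure D3:**
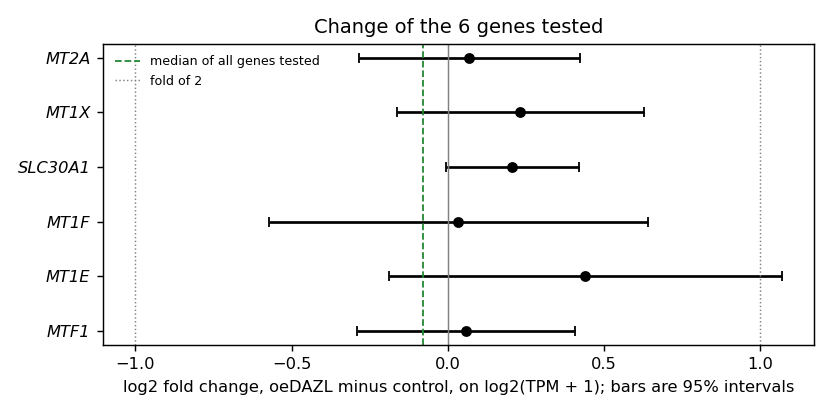
Log2 fold change, oeDAZL minus control, on log2(TPM + 1) (horizontal axis) of the 6 genes tested, with 95% intervals from limma, the median of all genes tested (dashed) and a fold change of 2 (dotted). All 6 points lie to the right of 0 and all intervals hold 0, and only the interval of MT1E passes a fold of 2.

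All 6 estimates were above 0, with a median of 0.14, beside a median of -0.08 over all genes tested, of which 65.3% were lower in oeDAZL. That background depends on scaling, since 47.6% of all genes were lower with median-of-ratios scaling (median 0.01) and 48.7% after quantile normalization (median 0.01). This is a description of 6 genes with overlapping libraries in 5 of them, and it was not tested. Between replicates the 4 metallothionein members tested varied more than most genes. The within-group SD on the log2 scale was 0.41 in MT1F and 0.40 in MT1E, larger than in 94.5% and 94.4% of all genes tested, 0.25 in MT1X (83.4%) and 0.23 in MT2A (81.1%). By contrast it was 0.08 in MTF1 (37.6%) and 0.04 in SLC30A1 (14.4%), whose transcripts are 7937 and 5893 bases long. Whether the spread goes with transcript length was not tested.

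Summed over the 7 metallothionein members, the level was 87.8 and 95.9 TPM in control against 108 and 95.3 TPM in oeDAZL. The groups overlapped, with means of 91.9 ± 5.72 TPM (SD, n = 2) in control and 102 ± 9.19 TPM (SD, n = 2) in oeDAZL and a ratio of 1.11. Adding the 14 other metallothionein loci of the table left the ratio at 1.11. Within the sum, MT2A made up 51.5% and 58.0% in control against 55.1% and 48.8% in oeDAZL, and the share of MT1X was 22.4% and 19.8% in control and 17.7% and 28.6% in oeDAZL. The share of MT1F was 20.3% and 12.4% in control and 17.2% and 12.6% in oeDAZL, and that of MT1E was 5.73% and 9.53% in control and 9.97% and 8.97% in oeDAZL. For each of these 4 genes the shares of the groups overlapped.

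**Figure D4:**
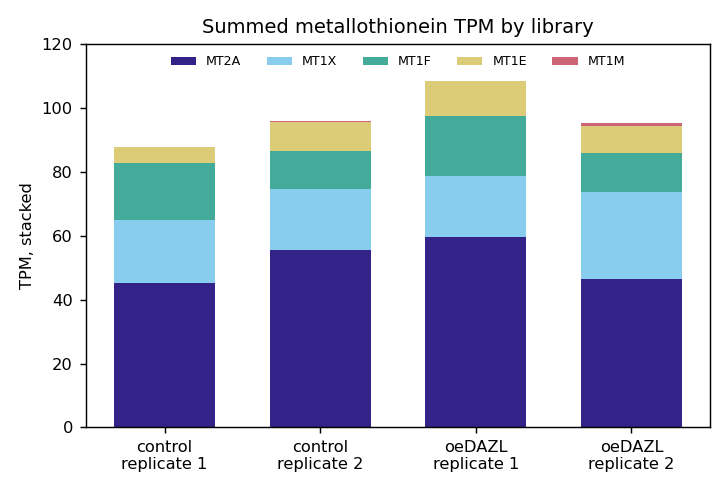
Stacked TPM (vertical axis) of the metallothionein members in each of the 4 libraries, with MT1G and MT1H absent because they were listed at 0. MT2A is the largest block in each bar, and the totals of 87.8 and 95.9 TPM in control overlap those of 108 and 95.3 TPM in oeDAZL.

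The other loci of the family added little. Of 14 genes and pseudogenes, 9 were listed at 0 in all libraries, among them MT1A, MT1B and MT4, and none reached the filter of 1 TPM. The highest value was that of the pseudogene MT1XP1, at 0.821 TPM in control replicate 2 and 0.133 TPM in oeDAZL replicate 2 and listed at 0 in the libraries numbered 1. MT3, the metallothionein of brain, was at 0.0320 TPM in control replicate 1 and listed at 0 elsewhere. Of the 7 metallothionein members and these 14 loci, only MT2A, MT1X, MT1F and MT1E had a mean of at least 1 TPM.

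Zinc transporters were grouped by family name, with SLC30A genes listed as exporters from the cytosol and SLC39A genes as importers into it. The direction of each single transporter was not checked. Of 23 such genes besides SLC30A1, 18 were tested and 0 were called in limma, with 1 higher and 2 lower at an unadjusted P of at most 0.05 and 0 at an adjusted p under 0.05. Over all genes tested, 0.689% were called, and 5.02% were higher and 15.2% lower at that unadjusted P. The 5 exporters tested had a median log2 fold change of -0.03 and the 13 importers one of -0.09, beside -0.08 over all genes tested. SLC30A9, a transporter of mitochondria rather than of the plasma membrane, was the highest of the SLC30A genes, at 40.2 and 40.1 TPM in control against 40.0 and 40.2 TPM in oeDAZL. SLC39A1, an importer of the plasma membrane, was the highest importer, at 194 and 201 TPM in control against 198 and 203 TPM in oeDAZL. These abundant transporters were nearly the same in all 4 libraries.

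The transporters farthest from 0 were less abundant. SLC30A10, which mainly exports manganese, was at 5.96 and 5.36 TPM in control against 2.35 and 3.09 TPM in oeDAZL, with a log2 fold change of -0.85 (SE 0.18, adjusted p = 0.105 in limma). Its groups did not overlap, with oeDAZL below as in 38.4% of all genes tested, and the fold on this scale was under 2. SLC39A5 was at 2.96 and 1.18 TPM in control against 0.624 and 0.412 TPM in oeDAZL, with a log2 fold change of -0.96 (SE 0.34, adjusted p = 0.205 in limma). With a pseudocount of 0.1 in place of 1, both were called lower in limma. SLC39A8, which imports zinc and manganese, was at 13.0 and 17.9 TPM in control against 23.9 and 21.3 TPM in oeDAZL, with a log2 fold change of 0.54 (SE 0.16, adjusted p = 0.159 in limma). Among the exporters besides SLC30A1, the largest positive estimate was 0.0018, for SLC30A7.

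**Figure D5:**
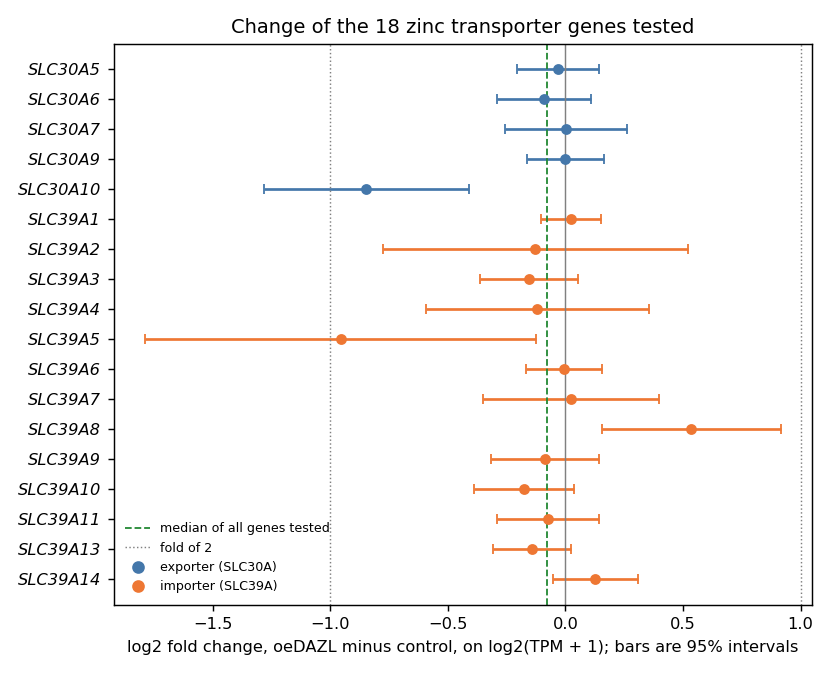
Log2 fold change, oeDAZL minus control, on log2(TPM + 1) (horizontal axis) of the 18 zinc transporter genes tested, with 95% intervals from limma, exporters in blue and importers in orange. SLC30A10 and SLC39A5 lie to the left, SLC39A8 to the right, and the other 15 intervals hold 0.

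Metallothioneins also bind copper, and they respond to oxidative stress, heat shock factors and glucocorticoids. Of 12 copper-handling genes, 10 were tested and 0 were called in limma, against 0.689% of all genes tested. At an unadjusted P of at most 0.05, 2 were lower, against 15.2% of all genes tested. ATP7B, a copper-exporting ATPase, was at 18.4 and 19.4 TPM in control against 14.3 and 12.0 TPM in oeDAZL (log2 fold change -0.49, SE 0.11, adjusted p = 0.116 in limma). SOD1, the copper-zinc superoxide dismutase, was the highest, with a log2 fold change of -0.01, and COX17, a copper chaperone of mitochondria, had the largest positive estimate, 0.21 (adjusted p = 0.382 in limma).

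Of 12 genes of the response to oxidants and heavy metals through NRF2, all 12 were tested and 0 were called in limma, with 4 higher and 1 lower at an unadjusted P of at most 0.05, against 5.02% and 15.2% of all genes tested. Their median log2 fold change was 0.14, beside -0.08 over all genes tested. GCLM, the modifier subunit of the enzyme that begins glutathione synthesis, was at 32.7 and 41.3 TPM in control against 58.4 and 56.1 TPM in oeDAZL (log2 fold change 0.62, SE 0.11, adjusted p = 0.0896 in limma). FTH1, the ferritin heavy chain and the highest of the list, was at 2724 and 3143 TPM in control against 3777 and 3663 TPM in oeDAZL (log2 fold change 0.35, SE 0.08, adjusted p = 0.116 in limma). SLC7A11, the cystine importer, was at 11.5 and 12.6 TPM in control against 8.70 and 7.77 TPM in oeDAZL (log2 fold change -0.50, SE 0.12, adjusted p = 0.123 in limma). The groups of these 3 genes did not overlap, as in 54.4% of all genes tested. GCLM and FTH1 lay above, as in 16.04% of all genes tested, and SLC7A11 lay below, as in 38.4%. None of the 3 passed the fold threshold.

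Of 7 heat shock genes 6 were tested, with 0 called in limma and 0 at an unadjusted P of at most 0.05. Over all genes tested, 0.689% were called and 20.2% passed that P. DNAJB1, a co-chaperone, was the highest, with a log2 fold change of -0.03, and the estimates ran from -0.15 for HSF1, the heat shock factor, to 0.16 for HSPH1, a chaperone. Of 7 glucocorticoid-responsive genes 6 were tested and 0 were called in limma, against 0.689% of all genes tested. At an unadjusted P of at most 0.05, where 5.02% of all genes tested were higher, 2 were higher. These were TSC22D3, a leucine zipper protein induced by glucocorticoids, at 15.9 and 19.8 TPM in control against 25.8 and 25.2 TPM in oeDAZL (log2 fold change 0.50, adjusted p = 0.118 in limma), and SGK1, a kinase and the highest of the list, at 20.9 and 26.4 TPM in control against 32.7 and 29.1 TPM in oeDAZL (log2 fold change 0.38, adjusted p = 0.191 in limma). The lowest estimate of the list was -0.09, for PER1, a circadian clock gene.

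Genes on either side of the cluster on chromosome 16 were also looked at. Of 8 neighbours 6 were tested, 1 was listed at 0 in every library and 0 were called in limma, against 0.689% of all genes tested. At an unadjusted P of at most 0.05, 1 was higher and 2 were lower, against 5.02% and 15.2% of all genes tested. NUDT21, a subunit of the cleavage factor for polyadenylation, was the highest and had the largest positive estimate, at 104 and 97.6 TPM in control against 114 and 114 TPM in oeDAZL (log2 fold change 0.18, adjusted p = 0.195 in limma). BBS2, a component of the BBSome of cilia, had the largest negative estimate, at 27.3 and 26.2 TPM in control against 21.8 and 21.9 TPM in oeDAZL (log2 fold change -0.28, adjusted p = 0.155 in limma). Over the 8 lists besides the 9 members, 58 of 83 genes were tested, 15 had an unadjusted P of at most 0.05, against 20.2% of all genes tested, and 0 were called in limma, against 0.689%.

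The pattern of the summed metallothioneins over the 4 libraries was compared with that of each of 9915 genes outside the family whose mean reached 10 TPM, as the Euclidean distance between values of log2(TPM + 1) centred on their mean. The 5 nearest were ROMO1 (distance 0.0196), PHTF2 (0.0260), MATN3 (0.0280), HM13 (0.0294) and LIX1 (0.0299). ROMO1, a protein of the mitochondrial membrane, was at 68.0 and 74.6 TPM in control against 84.1 and 75.1 TPM in oeDAZL. Of the 9915 genes compared, 237 lay at a distance under 0.1 and 2067 at a distance under 0.2. Over only 4 libraries, such likeness is no evidence of a link between genes.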

How the data were processed

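RNA sequencing of 2 control and 2 oeDAZL libraries was used. Per gene and library, the authors deposited TPM; 6 other samples hold small RNA and were not used here. Per the paper's methods and the submitters' processing notes, reads were trimmed with Trim Galore, mapped to hg38 with HISAT2 2.1.0, kept if unique and quantified with StringTie 2.1.4. The annotation release and read length are not given in the sources used here, and TPM keeps no depth, so no counting interval or floor was computed.

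From 65003 entries, 45 pseudoautosomal copies and 18 repeated identifiers were left out. Symbols with several entries were taken from the one in GENCODE 44, and MT1IP and PER1 were matched by gene identifier. The authors' TPM values were used as log2(TPM + 1), with a mean of at least 1 TPM, in limma 3.58.1 (R 4.3.3, eBayes with trend, no covariates, Benjamini-Hochberg adjustment over all genes tested). With 2 libraries against 2, no exact permutation test can pass the threshold, so none was run. In simulated libraries of 16687 genes, 98% of genes changed by 1 and 100% of those changed by 2 on the log2 scale passed P at most 0.05. The changed genes were drawn from the more abundant genes, with normal noise at each gene's own within-group SD. MT1F and MT1E varied more than 94.5% and 94.4% of all genes tested, so these shares do not describe them. Changes as small as the member estimates, from 0.03 to 0.44, were not simulated, so the shares do not apply to changes of that size.

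The members and lists were chosen with earlier results of these data known. The genes named are every member and, from each pathway list, the highest, those called, and those with the largest positive and negative estimates. Other loci of the family and cell type markers were named outside that rule, after their values were seen. Alternatives were another pseudocount, other filters, 3 scalings, no trend, the replicate block and each library left out.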

Additional observations from a re-analysis of the deposited data

How the results depend on the processing

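No member was called and none had an adjusted p under 0.05 in limma in any alternative run. The ratio of summed metallothionein TPM, 1.11 as deposited, was 1.11 to 1.19 under other scalings or with every locus and 1.04 to 1.18 with each library left out. The median of the members was 0.12 to 0.22 with each library left out and 0.14 to 0.25 otherwise. With each library left out, the log2 fold change ran from -0.27 to 0.33 for MT1F, -0.014 to 0.48 for MT1X, -0.11 to 0.25 for MT2A, -0.00074 to 0.11 for MTF1, 0.07 to 0.82 for MT1E and 0.17 to 0.25 for SLC30A1, so the first 4 changed sign (MT1F without control replicate 2 or oeDAZL replicate 1, MT1X without oeDAZL replicate 2, MT2A without either replicate 1, MTF1 without control replicate 1 or oeDAZL replicate 2); a lone library of a group was taken to vary like the other. At an unadjusted P of at most 0.05, MT1E passed without control replicate 2 and with the crossed block, and MT1X without oeDAZL replicate 1. Called genes over the whole table numbered 115 as deposited, 322 with a pseudocount of 0.1, 29 where the mean had to reach 5 TPM, 5 with an adjusted p, and 110 to 325 with each library left out (325 without control replicate 2, 177 without oeDAZL replicate 1 and 246 without oeDAZL replicate 2). Of the 58 tested genes of the other lists, 2 (SLC39A5 and SLC30A10) were called with a pseudocount of 0.1, 1 (SLC39A5) with TPM rescaled without mitochondrial genes, and 0 to 1 with each library left out, again SLC39A5 without control replicate 2 and without oeDAZL replicate 1. At an adjusted p under 0.05, 4 genes were higher and 6 lower as deposited, against 303 and 530 without control replicate 2 and 291 and 798 with the crossed block described next. The deviations of same-numbered libraries correlated at -0.10 over 16687 genes. This gave no sign that the numbers pair the samples, but a single correlation cannot exclude pairing. With the replicate number as a block, 125 genes were called, 0 of them members, and the SE of MT1F was 0.12. With the numbers crossed, an alternative chosen after seeing the data, 135 genes and 0 members were called. The cause of these differences was not tested. Depth is unknown, so values at or near 0 cannot be bounded.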
